A study of Mus musculus with 32 samples.

Results

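RNA left after 8 h of actinomycin D in cells given CD3254 was measured in 4 of the 32 RNA-seq libraries of the series: 2 from CD3254 cells before actinomycin D (0 h) and 2 from CD3254 cells after 8 h of it. They were chosen by their labels, and nothing measured entered the choice. All came from OG2X129 mouse embryonic fibroblasts held in chemical reprogramming medium, which contained VPA, CHIR99021, 616452, Parnate, Forskolin, AM580, EPZ004777, vitamin C and bFGF. CD3254 is an agonist of the retinoid X receptor (RXR), and AM580, an agonist of the retinoic acid receptor, was in the medium of every group. The 2 CD3254 libraries at 4 h, and the DMSO libraries at 0, 4 and 8 h, 2 of each, entered the same fit and served as the comparison arm. The labels give neither the CD3254 and actinomycin D doses, nor the day of reprogramming, nor whether replicate libraries came from separate cultures, so p-values measure only the spread between these libraries.

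Actinomycin D intercalates into DNA and blocks transcription, so what is measured afterwards is mostly RNA made before the block. The level of an mRNA then falls at the pace at which it is deadenylated, decapped and digested, from the 5′ end by XRN1 and from the 3′ end by the RNA exosome. Immediate early genes and feedback inhibitors of signalling are known for short-lived mRNAs, and ribosomal protein and collagen genes for long-lived ones. The values are shares of a library, scaled to a total of 1000000 (CPM), so an RNA that decays more slowly than the rest can go up without any synthesis. For that reason a level "fell" or "rose" below only in its share of the library, when limma gave an adjusted p under 0.05 over all genes tested.

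The CD3254 libraries held between 16919806 and 24186485 reads. The 2 libraries at 0 h differed from each other more than those at 8 h did: 7.67% of the 17064 genes tested were over a log2 difference of 1 apart at 0 h, against 0.469% at 8 h. In DMSO cells 4.24% of genes were that far apart at 0 h and 4.92% at 8 h. Of these, 659 were higher in the first DMSO library at 0 h, and 807 in the second DMSO library at 8 h. The first CD3254 library at 0 h is called the first 0 h library below. It was the higher for 42 of 43 short-lived mRNAs, by a median of 2.59-fold. Counts or medians without it are given beside the lists below. Percentages left are of the mean of both 0 h libraries, and where the value against the second 0 h library alone is over 1.5 times as high it is given after it. Synthetic ERCC spike-in RNAs took 1267 and 1849 CPM at 0 h and 2009 and 1868 CPM at 8 h, so spike-ins were 1.53-fold higher at 8 h against the first 0 h library and 1.05-fold against the second. With 2 libraries against 2 the smallest exact permutation p is 0.33, and the labels do not say what the spike-ins were added to. The marker check did not give a plain fibroblast picture. Fibroblast markers were present, with 6 of 6 tested and a summed level of 2309 to 2551 CPM at 0 h, but so were epithelial markers at 1358 to 1486 CPM and the endoderm (XEN-like) markers Gata4, Gata6, Sox17 and Foxa2 at 1303 to 2538 CPM. Of the pluripotency markers, Pou5f1 and Nanog were too low to be tested.

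After 8 h of actinomycin D, 7045 of 17064 genes had fallen (41.3%) and 2245 had risen (13.2%), with a median log2 change of -0.34. Relative to the median gene, 5276 were lower (31%) and 3899 higher (22.9%), with a median log2 change of -0.06. Scaled to the spike-ins, 7941 were lower (46.4%) and 930 higher (5.43%), with a median of -0.64. Without the first 0 h library, 3696 were lower (21.9%) and 967 higher (5.74%) in CPM, 2267 (13.5%) and 1919 (11.4%) relative to the median gene, and 96 (0.568%) and 144 (0.851%) with the spike-in scaling. Both 8 h libraries lay below both 0 h libraries for 56.3% of genes and above them for 24.2%.

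The 12 largest falls were in Ccn1, Cdx2, Elf3, Nfkbia, Dusp1, Id3, Sgk1, Hes1, Irf2bp1, Cebpb, Dyrk3 and Sox7. Ccn1, a secreted matricellular protein and Hippo pathway target, was at 556 and 62.0 CPM at 0 h, 1.24 and 0.701 CPM at 4 h, and 3.31 and 3.43 CPM at 8 h. Both 0 h libraries lay far above the other 4, and the 8 h pair lay above the 4 h pair. The log2 change at 8 h was -5.42 ± 1.00 (SE, n = 2 and 2 libraries, adjusted p = 0.00296), and -3.85 without the first 0 h library (adjusted p = 0.0291). Cdx2, a caudal homeobox factor, went from 186 and 28.0 CPM to 1.89 and 1.86 CPM, which left 1.75% of the 0 h mean and 6.70% of the second 0 h library. Nfkbia, which encodes the NF-κB inhibitor IκBα, went from 180 and 32.3 CPM to 2.25 and 4.13 CPM, a log2 change of -4.25 ± 0.73 (adjusted p = 0.00296). Dusp1, a phosphatase that switches off MAP kinases, went from 262 and 44.3 CPM to 5.26 and 5.17 CPM. The groups did not overlap for any of these. The other 8 were the epithelial ETS factor Elf3, the inhibitor of DNA binding Id3, the kinases Sgk1 and Dyrk3, the Notch target Hes1, Irf2bp1, Cebpb and the endoderm-associated factor Sox7. Of the 0 h mean CPM, 2.03% (Dyrk3) to 5.60% (Sox7) was left for these 8, and 6.84% to 13.7% of the second 0 h library. All 12 also passed relative to the median gene, with the spike-in scaling and without the first 0 h library.

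Of the 43 immediate early and other short-lived mRNAs, 41 fell and none rose, with a median log2 change of -2.74, where the median over all genes was -0.34. Relative to the median gene 40 were lower, and without the first 0 h library 33 were. Klf4, a zinc finger factor, went from 661 and 274 CPM to 39.1 and 45.6 CPM (log2 change -3.30 ± 0.51, adjusted p = 0.00296). Txnip, an inhibitor of thioredoxin, kept 9.77% of its 0 h mean (19.9% of the second 0 h library), and the immediate early gene Ier2 kept 13.7% (24.7%). Among 26 feedback inhibitors of signalling 23 fell and none rose, and 15 fell without the first 0 h library. Socs3, an inhibitor of cytokine receptors, went from 806 and 413 CPM to 90.8 and 89.7 CPM (log2 change -2.66 ± 0.38, adjusted p = 0.0027). Axin2, a negative regulator and target of Wnt signalling, went from 386 and 172 CPM to 42.1 and 42.0 CPM. Socs2 and Lrig1, an inhibitor of EGF receptors, kept 25.9% and 37.6%.

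**Figure D1:**
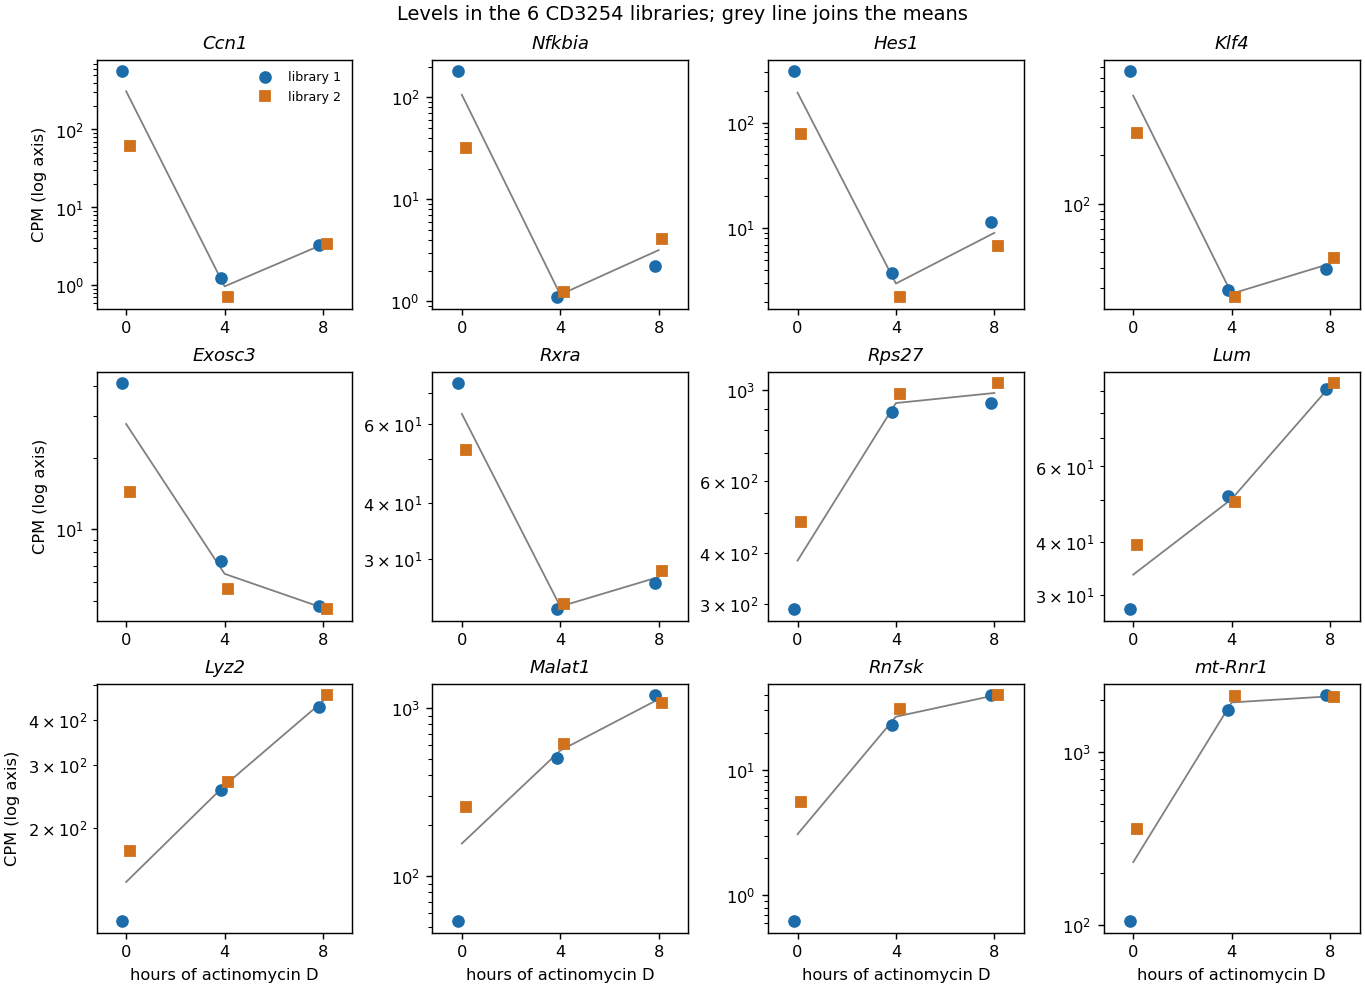
Level of 12 genes (CPM, log axis) in the 6 CD3254 libraries at 0, 4 and 8 h of actinomycin D; circles are first libraries, squares second libraries, and the grey line joins the means. Ccn1, Nfkbia, Hes1 and Klf4 are lowest at 4 h, Exosc3 is lowest at 8 h, at 4.73 and 4.59 CPM, and Rps27, Lum, Lyz2, Malat1, Rn7sk and mt-Rnr1 lie above both 0 h libraries at 8 h.

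These short-lived mRNAs were lower at 4 h than at 8 h. Both 8 h libraries lay above both 4 h libraries for 37 of the 43 and below them for 2, where over all genes tested 36.0% lay above and 32.3% below. The summed level of the 43 was 10403 and 3355 CPM at 0 h, 701 and 587 CPM at 4 h, and 840 and 857 CPM at 8 h. Genes of other lists were lower at 8 h than at 4 h: both 8 h libraries lay below both 4 h libraries for 34 of 38 DNA replication genes, 31 of 37 mitosis genes and 36 of 37 proteasome subunits. The 4 h and 8 h libraries were compared by their values only.

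**Figure D2:**
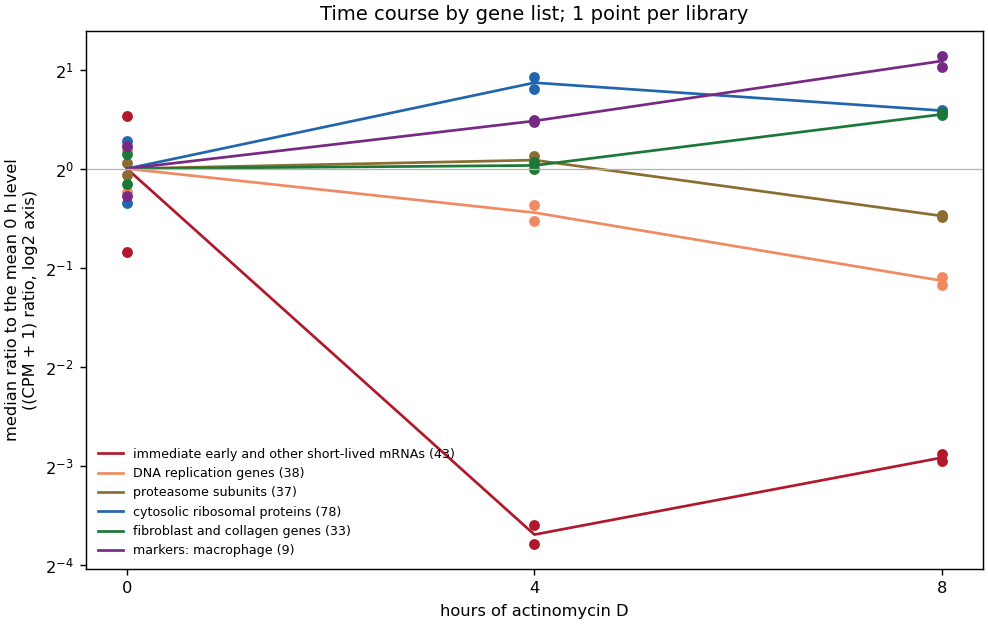
Median ratio of (CPM + 1) to the mean 0 h level over the tested members of 6 gene lists, 1 point per CD3254 library, lines through the means, log2 axis. The 43 short-lived mRNAs reach 0.0823 and 0.0721 of the 0 h mean at 4 h and 0.135 and 0.129 at 8 h, while DNA replication genes are lowest at 8 h, at 0.469 and 0.444.

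Sequence elements in the 3′ untranslated region (UTR) set the life span of many mRNAs: AU-rich elements built from ATTTA recruit decay factors such as TTP, and Pumilio proteins bind TGTANATA. The windows below are 30 bases of the 3′ UTR on the mRNA strand (GENCODE M21 annotation on GRCm38, mm10), written as DNA, for genes among the 12 largest falls, shown to give the elements their setting. In the first pair the capitals mark ATTTA.
Dusp1 (chr17:26506167-26506196, minus strand): ggctcatgggagctggtccttATTTATTTA
Nfkbia (chr12:55489618-55489647, minus strand): acctaatgaaaggaccacgttttATTTAtt
In the next 3 the capitals mark TGTANATA.
Hes1 (chr16:30067602-30067631, plus strand): tgcactgcattTGTATATAttttatatgtt
Irf2bp1 (chr7:19006280-19006309, plus strand): accctaacctaTGTATATAccctttcctct
Elf3 (chr1:135253772-135253801, minus strand): aatattccaggTGTATATAgagagctattt

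Across 14184 nuclear protein-coding genes with an annotated coding sequence, the longer AU-rich element was about as frequent in mRNAs that fell as in all. The share that fell was lowest in genes with 10 or more ATTTA, but higher in genes with fewer ATTTA than in genes with none. The 9-base element TTATTTATT, searched on the mRNA strand, was in the 3′ UTR of 7.50% of genes that fell, 7.45% of those that rose and 7.16% of all. Of genes with 1 or 2, 3 to 5 and 6 to 9 ATTTA, 47.7%, 45.4% and 44.3% fell. Of genes with 10 or more ATTTA, 37.2% fell and 21.5% rose, with a median log2 change of -0.21. Of genes with none, 40.9% fell and 12.4% rose, with a median of -0.32. Without the first 0 h library the medians were -0.13 with 10 or more ATTTA and -0.35 with none. In DMSO cells the order was the other way, with medians of -0.40 and -0.27. Genes with TGTANATA in the 3′ UTR, searched on the mRNA strand, fell more often. Of the 3372 genes that hold it (23.8% of all), 52.1% fell and the median log2 change was -0.59, against 41.4% and -0.32 in the 10812 genes without it. With genes split into 4 equal groups by 3′ UTR length, the medians were -0.78 with the element and -0.21 without it in the group with the shortest UTRs, and -0.50 and -0.42 in the group with the longest. In DMSO cells the medians over all genes were -0.57 with it and -0.31 without it. Without the first 0 h library, 27.6% and 23.3% of genes fell, and in the group with the longest UTRs 23.7% and 24.5%. Of the 90 genes named by rule as lower that have a 3′ UTR, 23 hold TGTANATA.

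The number of exon junctions per kb of coding sequence had the highest rank correlation with the log2 change of the 9 gene properties compared (Spearman rho 0.29 across genes, which are not independent, and 0.23 in DMSO cells). Of 4 equal groups of genes, 59.6% fell in the group with the fewest junctions, with a median of -0.86. In the group with the most, 30.8% fell and the median was -0.10. Without the first 0 h library these medians were -0.67 and -0.16. Genes with the fewest junctions also had the lower median than those with the most in each of 4 groups by mean level, with -0.61 against 0.08 at the lowest levels and -0.53 against 0.06 at the highest. Genes with 1 exon had a median of -0.94. GC content of the transcript had a rho of -0.13 with CD3254 and 0.04 with DMSO.

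**Figure D3:**
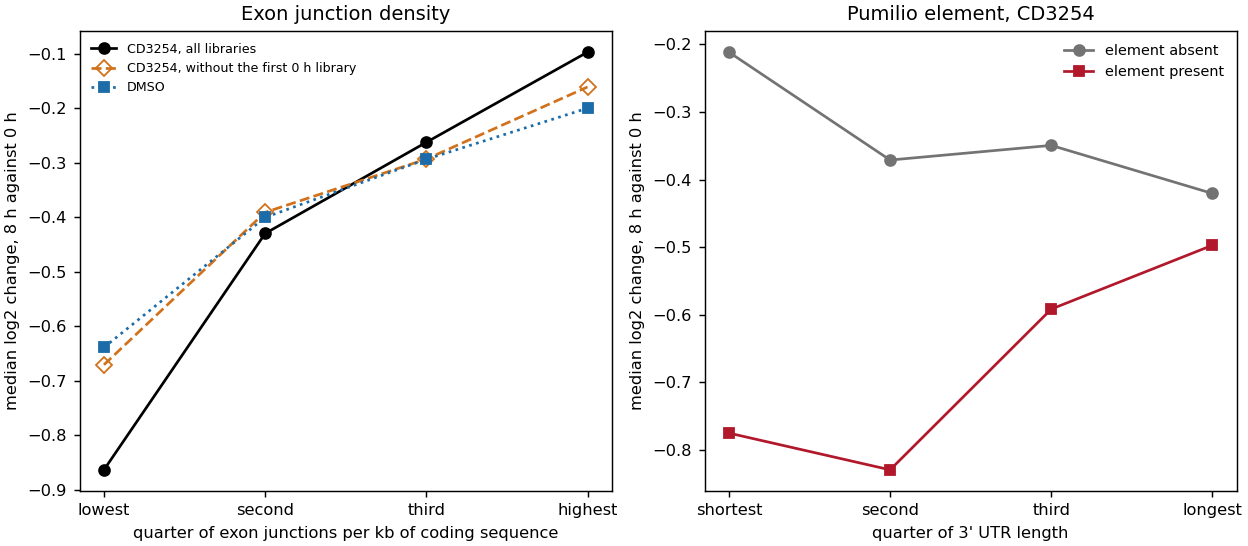
Left, median log2 change at 8 h in 4 equal groups of genes by exon junctions per kb of coding sequence, for CD3254 with all libraries, CD3254 without the first 0 h library, and DMSO; with all libraries the medians go from -0.86 to -0.10. Right, the same median for CD3254 in 4 equal groups by 3′ UTR length, for genes with the Pumilio element (red squares) and without it (grey circles); the red points lie below the grey ones in all 4 groups.

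The mRNAs of the decay machinery were themselves among those that fell. Of 27 genes of the RNA exosome and its cofactors 20 fell and none rose, where over all genes 41.3% fell and 13.2% rose. Their median log2 change was -1.22, against -0.34 over all genes. Without the first 0 h library these medians were -0.93 and -0.32. Relative to the median gene 20 of the 27 were lower and 3 higher. Exosc3, which encodes the RRP40 cap subunit, was at 41.1 and 14.3 CPM at 0 h and at 4.73 and 4.59 CPM at 8 h. Both 8 h values lay below both 0 h values, and the log2 change was -2.17 ± 0.46 (adjusted p = 0.0039). Exosc4 and Exosc6 encode subunits of the hexameric ring. Exosc4 went from 47.4 and 21.5 CPM to 6.09 and 6.68 CPM, and Exosc6 fell by 2.37 on the log2 scale (by 1.99 without the first 0 h library). Dis3, a catalytic subunit, kept 42.0% of its 0 h mean, and Zcchc8, of the nuclear exosome targeting complex, kept 39.9%. Among 45 genes of deadenylation, decapping and 5′ decay 32 fell and 2 rose. Their median log2 change was -0.94, and -0.70 without the first 0 h library. Btg1, a deadenylase adaptor, kept 17.8% (28.3% of the second 0 h library), the deadenylase Parn 43.3% and the decapping scaffold Edc4 44.4%. Rc3h2, which encodes the RNA-binding ubiquitin ligase Roquin-2, rose from 28.7 and 41.0 CPM to 76.9 and 75.8 CPM (log2 change 1.13 ± 0.18, adjusted p = 0.00296).

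Rxra, the receptor that CD3254 activates, went from 73.7 and 52.4 CPM at 0 h to 23.1 and 23.8 CPM at 4 h and 26.5 and 28.1 CPM at 8 h. The 8 h libraries lay below both 0 h libraries, with a log2 change of -1.16 ± 0.27 (adjusted p = 0.00542), but without the first 0 h library the adjusted p was 0.0527. Of 32 genes of RXR partners, their targets and retinoid metabolism 12 fell and 7 rose (7 and 3 without that library), against 41.3% and 13.2% of all genes. The balance depended on the scaling: 8 were lower and 10 higher relative to the median gene, and 12 and 2 with the spike-ins. Rara, the retinoic acid receptor alpha, kept 9.91% of its 0 h mean (17.6% of the second 0 h library), and Mylip, an LXR target that degrades the LDL receptor, kept 16.9% (26.0%). Cyp26a1, the retinoic acid hydroxylase, was high and even at 0 h (1248 and 1339 CPM) and was at 553 and 530 CPM at 8 h (log2 change -1.25 ± 0.12, adjusted p = 0.00224). Its course from 984 and 968 CPM at 4 h was slower than that of Rara, which was at 1.54 and 1.24 CPM by then. Srebf1, the lipid synthesis regulator, kept 41.6%.

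All 4 XEN-like markers, the endoderm transcription factors named above, fell: Gata4 went from 1082 and 446 CPM to 66.1 and 59.3 CPM, Foxa2 from 159 and 51.2 CPM to 9.34 and 9.18 CPM. Sox17 went from 1154 and 759 CPM to 207 and 211 CPM (log2 change -2.16 ± 0.30, adjusted p = 0.0027). Over the longer list of 26 XEN-like endoderm genes 14 fell and 4 rose, where 41.3% of all genes fell and 13.2% rose. Relative to the median gene 10 of the list were lower and 7 higher. Without the first 0 h library the median log2 change of the list was -0.35, against -0.32 over all genes. Single genes lay far on both sides of that median, with Sox17 at -1.86, Pth1r at -1.40 and Nid1 at 1.00. The parathyroid hormone receptor Pth1r kept 33.3%, while the basement membrane gene Nid1 rose from 284 and 392 CPM to 804 and 764 CPM. Of 13 pluripotency genes tested, 12 fell and none rose (10 without the first 0 h library). Tbx3 went from 583 and 223 CPM to 51.8 and 47.4 CPM, Tfcp2l1 kept 25.5% and the threonine dehydrogenase gene Tdh kept 57.1%. Of 25 epithelial genes 17 fell and 1 rose (12 and none without that library); those that fell included the keratins Krt18 and Krt19 (23.2% and 36.2% left).

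Of 319 Zfp zinc finger genes 218 fell and 5 rose, where over all genes 41.3% fell and 13.2% rose. Their median log2 change was -0.97, and -0.68 without the first 0 h library. Zfp41 and Zfp7 kept 16.1% and 20.3% of their 0 h means. Among 35 Hox genes 20 fell and none rose, and relative to the median gene 15 were lower and 3 higher; without the first 0 h library 6 fell. Hoxd9 kept 28.8%. Of 38 DNA replication genes 35 fell, and of 37 mitosis genes 33 fell, with none rising in either list (29 and 23 fell without the first 0 h library). The loading factor Cdc6 went from 36.9 and 15.3 CPM to 2.36 and 2.73 CPM, the flap endonuclease Fen1 kept 8.78% (16.6% of the second 0 h library), the mitotic kinase Aurka 6.51% (13.0%) and the spindle factor Tpx2 30.6%. Among 37 proteasome subunits 21 fell and none rose as deposited, whereas relative to the median gene 12 were lower and 3 higher. Without the first 0 h library their median log2 change was -0.38, near the -0.32 over all genes. Psmc5 and Psmd7, of the regulatory particle, kept 39.8% and 35.1%.

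**Figure D4:**
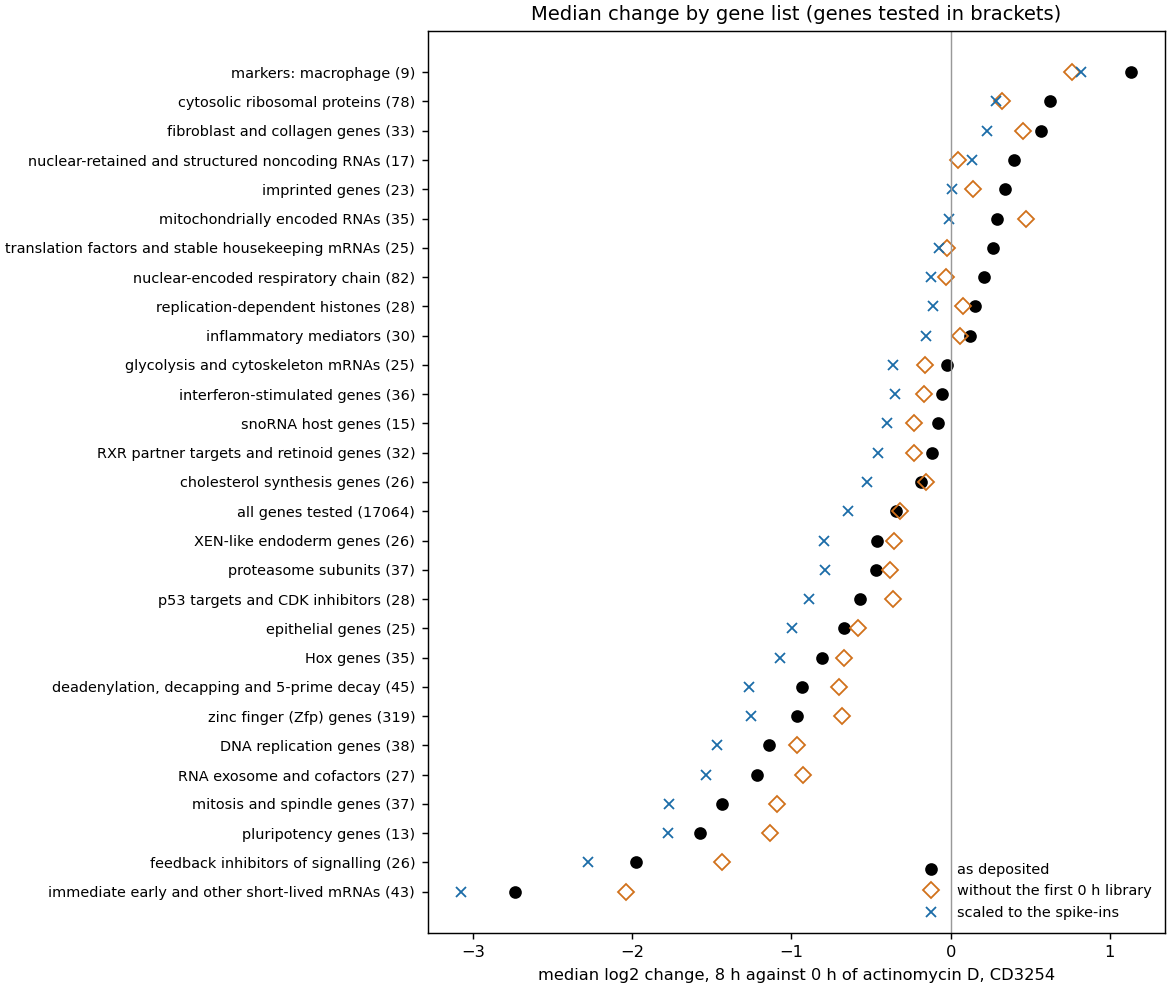
Median log2 change at 8 h against 0 h of actinomycin D over the tested genes of each list (number in brackets) in CD3254 cells, as deposited (filled circles), without the first 0 h library (open diamonds) and scaled to the spike-ins (crosses). The short-lived mRNAs lie lowest at -2.74 as deposited and the macrophage markers highest at 1.13. Some lists lie above 0 as deposited and below 0 with the spike-in scaling. These are the nuclear-encoded respiratory chain, mitochondrially encoded, inflammatory, translation factor and histone lists.

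Of the RNAs that rose, the largest increases were in noncoding and mitochondrial ribosomal RNAs, and for those named next the first 0 h library was the lower one. Malat1, a nuclear long noncoding RNA, was at 53.8 and 259 CPM at 0 h, 504 and 611 CPM at 4 h and 1187 and 1067 CPM at 8 h, a log2 change of 3.24 ± 0.67 (adjusted p = 0.0036) and 2.12 without the first 0 h library. Gm27694 and Gm37376 are annotated within the Malat1 region of chromosome 19 and may share its reads. Rn7sk, the RNA polymerase III transcript that holds P-TEFb inactive, rose from 0.620 and 5.55 CPM to 39.5 and 39.6 CPM. The mitochondrial 12S ribosomal RNA mt-Rnr1 rose from 105 and 357 CPM to 2115 and 2062 CPM, and the 16S RNA mt-Rnr2 from 433 and 876 CPM to 3327 and 3486 CPM. For these 4 RNAs all libraries at 4 h and 8 h lay above both 0 h libraries.

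The largest of the 12 rises named by rule was in Gm24187, listed at 0.620 and 2.86 CPM at 0 h and at 30.3 and 34.9 CPM at 8 h, and Gm24270 had much the same course, from 1.28 and 5.44 CPM to 37.3 and 42.3 CPM. Both are annotated as miRNA genes of 57 bases. They are shown because they differ by 1 base (G11A, the Gm24270 base first, counted from the 5′ end and in capitals), so reads may not be told apart between them (GENCODE M21, GRCm38, mm10).
Gm24187 (chr13:9834469-9834525, minus strand): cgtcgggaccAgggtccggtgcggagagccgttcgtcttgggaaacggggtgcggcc
Gm24270 (chr9:56223715-56223771, minus strand): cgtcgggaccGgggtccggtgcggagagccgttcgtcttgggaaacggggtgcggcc
Reads counted to Lars2, the mitochondrial leucyl-tRNA synthetase gene, rose from 71.2 and 364 CPM to 1161 and 1246 CPM. Which RNA these reads, or those counted to Gm24187 and Gm24270, came from was not tested. Gm29216, an unprocessed pseudogene, was the only one of the 12 that did not pass without the first 0 h library (adjusted p = 0.143).

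Of 78 cytosolic ribosomal protein genes 50 rose and none fell, with a median log2 change of 0.62; 69 were higher relative to the median gene, 32 higher and 1 lower with the spike-in scaling, and 15 higher without the first 0 h library. Rps27 went from 291 and 475 CPM to 928 and 1037 CPM (log2 change 1.40 ± 0.24, adjusted p = 0.00296), Rps21 from 171 and 264 CPM to 523 and 567 CPM, and Rpl39 from 251 and 398 CPM to 725 and 795 CPM. They were higher still at 4 h: both 8 h libraries lay below both 4 h libraries for 68 of the 78. Of 82 nuclear-encoded respiratory chain genes 26 rose and 4 fell, but 6 were higher and 9 lower with the spike-in scaling, and 5 rose without the first 0 h library. Among the 35 RNAs encoded in mitochondria 9 rose and 3 fell, and 6 were higher and 3 lower with the spike-in scaling. Their median log2 change was 0.29, but -0.01 with the spike-in scaling, and 0.47 without the first 0 h library. Those that rose included mt-Co2, the cytochrome oxidase subunit 2 mRNA, from 1813 and 1918 CPM to 3444 and 3641 CPM, and the proline tRNA mt-Tp. The mitochondrial share of all reads was 4.81% and 5.05% at 0 h and 8.82% and 9.13% at 8 h.

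Of 33 fibroblast and collagen genes 22 rose and 3 fell, 17 rose without the first 0 h library, and 13 were higher and 3 lower with the spike-in scaling. Lum and Dcn, small proteoglycans of the matrix, rose from 27.8 and 39.3 CPM to 91.0 and 93.8 CPM, and from 117 and 159 CPM to 340 and 352 CPM. Fap, the fibroblast activation protein, rose from 4.09 and 5.39 CPM to 13.0 and 15.1 CPM, and Col5a2 by a log2 change of 1.03 ± 0.13 (adjusted p = 0.0027). These genes were higher at 8 h than at 4 h. Both 8 h libraries lay above both 4 h libraries for 30 of the 33, and the summed level was 6780 and 7661 CPM at 0 h, 6822 and 6878 CPM at 4 h and 10619 and 10329 CPM at 8 h. Of 30 inflammatory mediators 9 rose and 5 fell (7 and 2 without the first 0 h library), though their median of 0.12 was -0.16 with the spike-in scaling. Mmp13, a collagenase, rose from 47.1 and 59.8 CPM to 156 and 159 CPM (log2 change 1.55 ± 0.16, adjusted p = 0.00224), and the chemokine Ccl8 from 194 and 263 CPM to 550 and 560 CPM. Icam1 and the prostaglandin E synthase Ptges were at 199% and 191% of their 0 h means.

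Macrophage markers rose too. Of 9 tested 7 rose and none fell, and their summed level was 154 and 238 CPM at 0 h and 558 and 590 CPM at 8 h; 5 rose without the first 0 h library. Lyz2, lysozyme, rose from 110 and 173 CPM to 434 and 468 CPM (log2 change 1.70 ± 0.22, adjusted p = 0.0027) and the mannose receptor Mrc1 from 9.76 and 14.2 CPM to 43.9 and 41.9 CPM. The leukocyte marker Ptprc was low, at 1.45 and 1.67 CPM at 0 h and 2.66 and 2.50 CPM at 8 h, and did not pass. In bulk RNA a change in the number of such cells and a change in RNA per cell cannot be told apart. The part of macrophages in the rise of the inflammatory genes was not tested. The summed level of 4 endothelial markers went from 324 and 310 CPM to 212 and 203 CPM.

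Other lists held genes that rose and genes that fell, where over all genes 41.3% fell and 13.2% rose. Counts in brackets after them leave out the first 0 h library. Of 28 p53 targets and CDK inhibitors 14 fell and 6 rose (6 and 3), with 10 lower and 9 higher relative to the median gene and 14 and 1 with the spike-ins. The stress response gene Sesn2 fell by 3.48 on the log2 scale (by 2.60 without the first 0 h library) and the phosphatase gene Ppm1d kept 12.6% (20.9% of the second 0 h library), while Perp, a desmosomal p53 target, rose from 41.5 and 46.5 CPM to 97.0 and 88.7 CPM. Of 36 interferon-stimulated genes 11 fell and 3 rose (6 and none), but 5 were lower and 7 higher relative to the median gene, with Irf9 at 37.3% and Isg15 at 35.8% of the 0 h mean. Among 23 imprinted genes 11 rose and 4 fell (3 and 3); Mest rose by a log2 change of 0.79 ± 0.16 (adjusted p = 0.00329) and Zrsr1 kept 20.1% (33.6% of the second 0 h library). Of 28 replication-dependent histone genes 25 did not pass, 2 fell and 1 rose (1 and 1). Hist1h2bc rose from 35.6 and 40.7 CPM to 73.7 and 80.9 CPM and Hist2h2be went from 6.37 and 5.28 CPM to 1.60 and 1.80 CPM. In 25 mRNAs of glycolysis and the cytoskeleton, often used as references, 6 fell and 4 rose (8 and 3), with 5 lower and 10 higher relative to the median gene and 12 and 2 with the spike-ins. Actb went from 1318 and 917 CPM to 499 and 523 CPM, and Tmsb4x rose from 189 and 289 CPM to 454 and 459 CPM. Among the 25 translation factors and other housekeeping mRNAs 10 rose and 5 fell (2 and 5), with a median that was -0.07 with the spike-in scaling, the nucleolin gene Ncl being left at 45.5%.

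Small nucleolar RNAs, which guide modification of ribosomal RNA and are cut from introns, fell: 41 of 44 tested were lower and none higher. Their median log2 change was -1.57, and -0.47 in DMSO cells, where over all genes 41.3% fell with CD3254. A row needed 1 CPM or more in only 2 libraries, so a low RNA could be tested through its 0 h values alone, which favours a fall. Relative to the median gene 30 of the 44 were lower. Without the first 0 h library their median was -1.17, against -0.32 over all genes, with only 1 library left at 0 h. Of 15 snoRNA host genes 7 fell and 2 rose, close to the 41.3% and 13.2% of all genes. The median of these host genes was -0.08, and -0.23 without that library. Snhg5 kept 23.6% (36.3% of the second 0 h library), and Snhg18 rose from 16.1 and 23.5 CPM to 32.3 and 37.1 CPM, a rise that did not pass with the spike-in scaling. Of a list of 17 nuclear or structured noncoding RNAs, in which the protein-coding Lars2 is also placed, 6 rose and 3 fell (5 and 2 without that library), and Mirg, a host of miRNAs, fell by 1.39 on the log2 scale.

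Repeats took 2.30% and 2.19% of reads at 0 h and 1.59% and 1.55% at 8 h. Of 656 repeat families tested 202 fell (30.8%) and 23 rose (3.51%), and relative to the median gene 63 were lower (9.83%) and 36 higher (5.62%). Without the first 0 h library 63 fell (9.84%) and 11 rose (1.72%). SINEs, short elements that lie in many introns and UTRs, fell in 31 of 34 families and rose in none, including all 15 B1-related (Alu) and all 5 B2 families; without the first 0 h library 27 of the 34 fell. Their summed level was 10558 and 9288 CPM at 0 h, 4104 and 3810 CPM at 4 h and 5740 and 5696 CPM at 8 h, so the 4 h pair was the lowest. B2_Mm2 went from 651 and 516 CPM to 311 and 313 CPM. RLTR1B-int, the internal part of an endogenous retrovirus, had the largest fall, from 111 and 71.9 CPM to 24.1 and 27.3 CPM (log2 change -1.76 ± 0.19, adjusted p = 8.761e-07).

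MMVL30-int, the internal part of the VL30 retroelement that the series' title names, had the highest 0 h mean of the repeat families tested. It was listed at 3374 and 3524 CPM at 0 h, 2800 and 2442 CPM at 4 h and 2110 and 1948 CPM at 8 h. As listed it fell, with a log2 change of -0.77 ± 0.14 (adjusted p = 0.000255) and 58.8% of the 0 h mean left, and it also fell relative to the median gene (-0.45). On the recovered reads it passed with edgeR (log2 change -0.33, adjusted p = 0.0297) but not with DESeq2 (log2 change -0.39, adjusted p = 0.0526). These listed values do not add up within their columns. In every 4 h and 8 h library of both arms this row, and no other, gave no whole number of reads (within 0.002), and the column total missed 1000000 by 690 and 494 CPM in the CD3254 libraries, over it at 4 h and under it at 8 h. Exchanging the 4 h and 8 h values of the row gave whole reads and totals of 1000000 in all 8 libraries. With that exchange the 8 h values were 2800 and 2442 CPM, 76.0% of the 0 h mean was left, and the log2 change was -0.40 ± 0.14 (adjusted p = 0.0336). Relative to the median gene it was then -0.09 (adjusted p = 0.5). In DMSO cells 78.7% was left as listed and 103% after the exchange.

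The long terminal repeat RLTR6_Mm, which flanks VL30 elements, rose, whereas MMVL30-int as listed fell. RLTR6_Mm rose from 188 and 248 CPM at 0 h to 446 and 490 CPM at 8 h, after 232 and 229 CPM at 4 h (log2 change 1.11 ± 0.16, adjusted p = 2.958e-05). RLTR6-int, by its name an internal part, rose from 67.8 and 85.6 CPM to 133 and 123 CPM, so internal rows went both ways. Its rise was not past the threshold with the spike-in scaling. Among other elements that rose were the young LINE families L1Md_A, from 45.7 and 83.4 CPM to 250 and 172 CPM, and L1_Mm, from 10.3 and 17.3 CPM to 35.8 and 36.0 CPM. The repeat row for 7SK rose by 1.73 on the log2 scale, beside the rise of Rn7sk. IAPEz-int, an abundant IAP retrotransposon, was at 428 and 481 CPM at 0 h and 481 and 480 CPM at 8 h and did not pass.

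**Figure D5:**
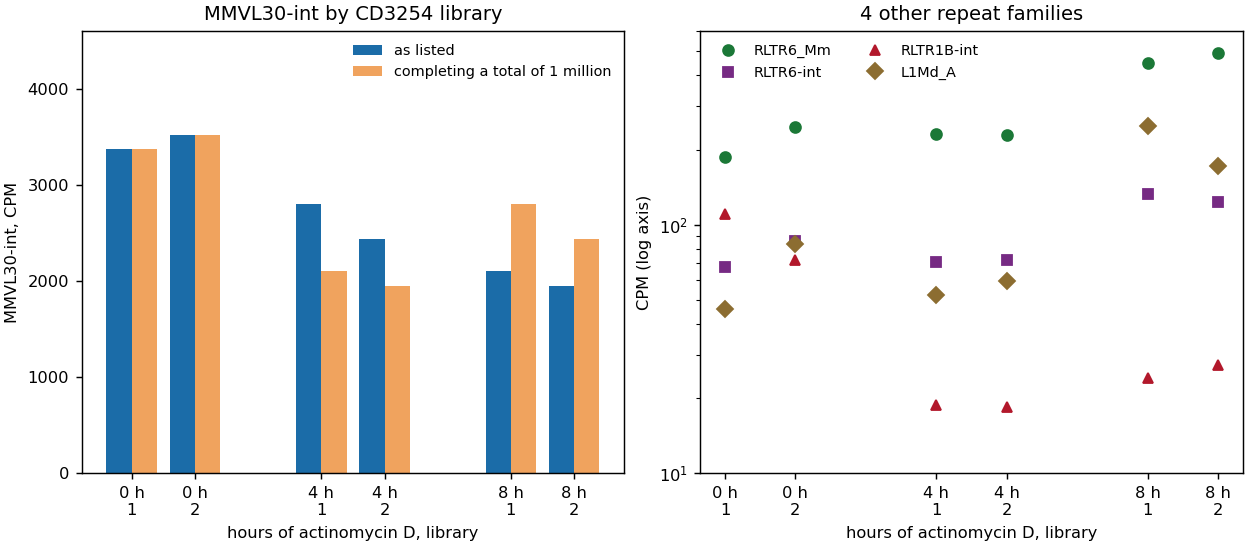
Left, MMVL30-int (CPM) in the 6 CD3254 libraries as listed (blue) and as needed for each column to add up to 1000000 (orange); the bars are equal at 0 h and trade places between 4 h and 8 h. Right, 4 other repeat families (CPM, log axis); RLTR6_Mm, RLTR6-int and L1Md_A lie above both 0 h libraries at 8 h, and RLTR1B-int lies below them.

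The change at 8 h was set against that in DMSO cells by the difference of the 2 changes. The DMSO pairs that enter it were uneven at both 0 h and 8 h, as given above. The difference passed for 1 of 17064 genes (0.00586%), mt-Tl1, by limma and for 1 by edgeR, while 1939 genes had an unadjusted p under 0.05. Without the second CD3254 library at 0 h, 346 genes passed, 302 of them higher and 44 lower with CD3254. The mitochondrial leucine tRNA mt-Tl1 (chrM:2676-2750, plus strand, mm10) lies directly between mt-Rnr2 and mt-Nd1, and its sequence is shown because it is the single gene called.
mt-Tl1: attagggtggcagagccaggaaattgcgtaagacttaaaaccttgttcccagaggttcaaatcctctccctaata
In CD3254 cells it was at 118 and 95.8 CPM at 0 h, 48.5 and 47.3 CPM at 4 h and 125 and 132 CPM at 8 h. In DMSO cells it was at 134 and 116 CPM at 0 h and at 16.9 and 21.3 CPM at 8 h, so that the 8 h pairs of the arms did not overlap while the 0 h pairs did. The difference of the log2 changes was 2.92 ± 0.22 (adjusted p = 0.000761), and it did not pass with the spike-in scaling. Peg10, an imprinted gene derived from a retrotransposon, had one of the smallest p-values after it, though it did not pass: it was at 1362 and 1303 CPM at 0 h and 1251 and 1265 CPM at 8 h with CD3254, against 836 and 986 CPM and 301 and 347 CPM with DMSO (difference 1.41 ± 0.18, adjusted p = 0.0644). Its change with CD3254 alone was -0.08 in CPM but 0.23 when centred on the median gene, and neither passed. Of 656 repeat families 4 passed (0.610%), all of them higher with CD3254. Exosc3, Rxra and MMVL30-int as listed did not pass, though MMVL30-int did after the exchange and relative to the median gene (difference -0.50, adjusted p = 0.0457), and such a p does not show that the arms were alike.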

How the data were processed

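RNA-seq libraries of mouse cells were processed by the authors with fastp 0.20.1, HISAT2 2.1.0 and StringTie 2.0 on mm10, per the submitters' processing notes, which name these tools without roles or settings. The deposited table gives a signal per gene, repeat family and ERCC row as CPM, counts scaled to a total of 1000000 reads; whole reads were recovered from it (100% of values above 0 whole within 0.002 reads at 0 h and 99.996% in the CD3254 libraries at 4 h and 8 h), for use in edgeR and DESeq2. Repeat families listed a second time under ENS names were dropped, which left 55401 genes, 1146 repeat families and 92 ERCC rows.

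Values were tested as log2(CPM + 1) with limma 3.58.1 (R 4.3.3, empirical Bayes with trend) on all 12 libraries of the table, for rows at 1 CPM or more in at least 2 libraries, 2-sided, with Benjamini-Hochberg adjusted p under 0.05, for repeats apart from genes. Log2 changes understate those of low genes. Percent left is the ratio of mean CPM at 8 h to that at 0 h. Rescaling used the median gene or the summed ERCC rows. Alternatives were edgeR 4.0.16, DESeq2 1.42.0, TMM factors, pseudocounts of 0.5 and 5, other filters, a replicate block and leaving out single libraries. Fits were tested on simulated data. Whether counting used strand is not given in the sources used here, so antisense partners cannot be told apart.

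Named genes were Rxra, Exosc3, MMVL30-int, the 12 largest changes per direction among non-overlapping genes past the threshold at 5 CPM or more, up to 4 members of each of 33 lists by p, up to 5 repeat families per direction, and the smallest p in the difference between arms. Gata4, Foxa2, Ptprc, Peg10, the RLTR6 rows, B2_Mm2 and IAPEz-int were named as markers or by their kind after their values were seen. Members and lists were chosen with earlier results of these data known. Sequences are from GENCODE M21 on GRCm38.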

Additional observations from a re-analysis of the deposited data

Results flagged for a closer look

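Several RNAs differed between the arms in their change over 8 h, by the limma test of the difference itself (CD3254 minus DMSO, log2). They are the gene mt-Tl1 (2.925), described above, and the repeat families MTEb-int (2.851), L1Md_A (2.261), L1MEg (1.660) and FordPrefect (1.484). For the 4 repeat families, 0.610% of the 656 tested, none was lower with CD3254.

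MTEb-int, an internal part of an MaLR retrotransposon, was at 15.8 and 39.3 CPM at 0 h and 60.6 and 51.6 CPM at 8 h with CD3254, and at 28.1 and 23.0 CPM and then 9.54 and 5.07 CPM with DMSO (adjusted p = 1.271e-05). L1Md_A was at 45.7 and 83.4 CPM and then 250 and 172 CPM with CD3254, and at 94.9 and 122 CPM and then 82.3 and 67.1 CPM with DMSO (adjusted p = 1.271e-05). In both families the first 0 h library with CD3254 was the lower one.

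L1MEg, an old LINE family, was even at 0 h in both arms, between 63.4 and 71.7 CPM. At 8 h it was at 75.7 and 74.97 CPM with CD3254 and at 21.8 and 25.6 CPM with DMSO (adjusted p = 4.743e-06). FordPrefect, a DNA transposon, was at 30.2 and 30.1 CPM and then 38.0 and 42.1 CPM with CD3254, and at 25.3 and 29.0 CPM and then 11.7 and 12.7 CPM with DMSO (adjusted p = 1.768e-05).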

How the results depend on the processing

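The 9290 genes called became 3412 with no filter on low values and between 4663 and 9839 with single CD3254 libraries left out; the lowest was without the first 0 h library, and without the first 8 h library 6053 were called. Without the first 0 h library, 4186 passed relative to the median gene and 240 with the spike-in scaling, both chosen after seeing the data. TMM factors and edgeR, which centre the genes, called 4599 and 4641 lower and 4604 and 4633 higher. The 225 repeat families became 99 relative to the median gene (97 with MMVL30-int exchanged), 79 with TMM factors, 83 with edgeR, 70 with DESeq2 and 74 to 171 with single libraries left out. The single gene called for the difference between arms became 0 with the spike-in scaling (1134 at an unadjusted p under 0.05) and 1 to 346 with single libraries left out, the highest without the second CD3254 library at 0 h. The spike-in ratio of 1.24 was between 1.05 and 1.53 with single libraries left out.

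Peg10 and L1MEg were not among the RNAs recomputed under each setting, and both changed sign with the scaling. L1MEg was at a log2 change of 0.18 in CPM and -0.16 with the spike-in scaling. The 114 named genes and repeats that were recomputed kept their direction, except mt-Tl1 and IAPEz-int. With the spike-in scaling mt-Tl1 was at -0.0684. IAPEz-int was at -0.2569 with that scaling, -0.0682 with it and without the first 0 h library, and between -0.0009 and 0.166 with single libraries left out. With both the spike-in scaling and that library left out, 76 of them lost the threshold. Same-numbered libraries of CD3254 at 0 h and 8 h did not deviate together (r = -0.09 over genes), but those of some other groups were related. For CD3254 at 0 h the r was 0.54 with DMSO at 0 h and -0.69 with DMSO at 8 h. Between DMSO at 0 h and 8 h it was -0.49. The reported fit took no account of the library numbers. With the replicate block 8824 genes and 227 families passed, and 1 gene for the difference between arms. Having 2 libraries per group limits the error estimates, and counting error limits RNAs near 1 CPM.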
